A study of Mus musculus with 6 samples.

Results

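The nuclear genes of respiratory complexes II to V were followed at the RNA level in mouse small-intestinal organoids, self-organising epithelial cultures that hold stem and differentiated cells. Members were all genes of the deposited table whose symbol names a subunit of succinate dehydrogenase (Sdha to Sdhd), of the cytochrome bc complex (symbols starting Uqcr, and Cyc1), cytochrome c (Cycs), a nuclear subunit of cytochrome oxidase (Cox4 to Cox8 symbols) or ATP synthase (symbols starting Atp5). This gave 51 of 27179 genes: 4 of complex II, 10 of complex III, 1 for cytochrome c, 18 of complex IV and 18 of complex V. The study compared wild-type organoids (3 libraries) kept for 17 h in 1e-07 M T3, the active form of thyroid hormone, with wild-type organoids (3 libraries) given the vehicle. Organoids of both groups were kept in Matrigel drops in the commercial medium IntestiCult. The labels give neither strain nor age, nor whether the libraries came from separate cultures or animals, so each p-value reflects library-to-library spread that could be purely technical.

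The respiratory chain passes electrons from nutrients to oxygen in the inner mitochondrial membrane. Complex II feeds electrons from succinate into the membrane, complex III hands them to cytochrome c, complex IV delivers them to oxygen, and complex V uses the proton gradient built by the chain to make ATP. Most subunits are encoded in the nucleus and imported, while catalytic subunits of complexes III and IV and part of the membrane domain of complex V are encoded by the mitochondrial genome. Thyroid hormone is known for raising oxygen use in many tissues. In the small intestine, absorptive cells use mitochondrial ATP to power the sodium pump that drives nutrient uptake.

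The labelled tissue was checked against marker genes. Epcam, an epithelial adhesion molecule, stood at 43854 to 44612 normalized reads with T3 and 38654 to 39458 with vehicle. Markers of other tissues were near 0: 6 fibroblast and smooth muscle genes summed to 6 to 22 normalized reads per T3 library and 7 to 27 per vehicle library. Cdh5, Hbb-bs, Hba-a1, Ckm and Myh6 were listed at 0 in all 6 libraries. Pecam1, an endothelial gene like Cdh5, had 9, 7 and 7 with T3 and 12, 12 and 12 with vehicle and was not called (limma adjusted p = 0.127). Klf9, a gene directly induced by T3 in many tissues, had 2080, 2201 and 2151 normalized reads with T3 against 362, 329 and 366 with vehicle. Column totals were 29510422 to 29974091 normalized reads with T3 and 28197080 to 28611883 with vehicle. T3 replicate 3 stood apart, with a mean chi-square per gene of 13.6 and 14.7 against the other T3 libraries, which differed from each other by 5.06. Vehicle replicate 1 was at 7.89 and 9.92 against the other vehicle libraries, which stood at 4.71. Where a named member's call is lost without one of these libraries, its value without it is given.

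Promoters of 6 members are shown here because their genes mark the range of responses described below. They belong to the cytochrome c gene Cycs, to Sdhd, Cox5a and Cox7a1, the members with the largest rises of complexes II and IV, and to a pair of genes for the same mature ATP synthase subunit, Atp5g3, which rose, and Atp5g2, which did not pass the test. Each runs from 250 bases before to 50 bases after the RefSeq start site in GRCm38.p6 and is written 5′ to 3′ on the gene's own strand. Capitals mark matches, on either strand, to letters bound by factors known to act on respiratory genes: GCNTGCGC (a short form of the palindrome bound by NRF1), CCGGAAG (ETS factors, including GABP), AAGATGGC (YY1), TCAAGGTCA (estrogen-related receptors) and AGGTCA (the core of many nuclear receptor sites, which lies within TCAAGGTCA).
Cycs, chr6:50566520-50566819, minus strand: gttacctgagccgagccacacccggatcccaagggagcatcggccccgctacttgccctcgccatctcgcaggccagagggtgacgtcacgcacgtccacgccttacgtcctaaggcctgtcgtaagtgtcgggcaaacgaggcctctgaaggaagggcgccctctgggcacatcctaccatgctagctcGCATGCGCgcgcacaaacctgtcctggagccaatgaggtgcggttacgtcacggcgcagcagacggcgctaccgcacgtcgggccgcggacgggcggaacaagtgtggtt
Sdhd, chr9:50603800-50604099, minus strand: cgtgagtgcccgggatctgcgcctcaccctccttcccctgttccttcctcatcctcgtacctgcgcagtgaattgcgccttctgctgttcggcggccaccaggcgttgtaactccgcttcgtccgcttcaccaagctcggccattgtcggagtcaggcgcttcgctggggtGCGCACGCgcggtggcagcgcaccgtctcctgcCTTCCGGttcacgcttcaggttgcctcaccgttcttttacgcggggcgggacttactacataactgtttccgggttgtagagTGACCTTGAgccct
Atp5g3, chr2:73911277-73911576, minus strand: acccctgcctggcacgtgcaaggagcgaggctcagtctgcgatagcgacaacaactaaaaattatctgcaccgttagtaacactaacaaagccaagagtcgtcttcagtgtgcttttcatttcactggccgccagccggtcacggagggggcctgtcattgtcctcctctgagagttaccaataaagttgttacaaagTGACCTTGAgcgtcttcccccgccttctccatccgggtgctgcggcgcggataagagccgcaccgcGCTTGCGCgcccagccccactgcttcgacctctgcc
Atp5g2, chr15:102670998-102671297, minus strand: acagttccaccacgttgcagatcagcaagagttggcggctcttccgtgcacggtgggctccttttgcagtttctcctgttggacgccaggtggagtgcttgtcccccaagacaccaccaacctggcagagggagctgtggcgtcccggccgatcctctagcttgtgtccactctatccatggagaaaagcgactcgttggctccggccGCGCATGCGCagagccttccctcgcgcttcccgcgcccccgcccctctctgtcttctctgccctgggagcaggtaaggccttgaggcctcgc
Cox5a, chr9:57520982-57521281, plus strand: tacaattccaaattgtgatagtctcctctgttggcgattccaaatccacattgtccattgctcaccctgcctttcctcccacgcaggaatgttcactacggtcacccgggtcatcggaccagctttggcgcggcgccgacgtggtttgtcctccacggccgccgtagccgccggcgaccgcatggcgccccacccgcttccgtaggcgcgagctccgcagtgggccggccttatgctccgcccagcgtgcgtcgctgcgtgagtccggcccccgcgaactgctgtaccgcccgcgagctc
Cox7a1, chr7:30183921-30184220, plus strand: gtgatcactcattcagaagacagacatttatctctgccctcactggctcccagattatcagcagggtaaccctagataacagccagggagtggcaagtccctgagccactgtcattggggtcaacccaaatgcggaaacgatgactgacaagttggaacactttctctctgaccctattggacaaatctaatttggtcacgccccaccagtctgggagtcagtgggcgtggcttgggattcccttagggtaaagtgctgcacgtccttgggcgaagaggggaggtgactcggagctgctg

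The Cycs promoter held GCATGCGC with its first base 60 bases before the start site. The Sdhd promoter held TGACCTTGA, the reverse complement of TCAAGGTCA, 37 bases into the transcript, and CTTCCGG 46 bases before the start. It also held GCGCACGC, a match to the short NRF1 form on the other strand, 79 bases before the start. The Atp5g3 promoter held TGACCTTGA 52 bases before the start and GCTTGCGC, a match to the short NRF1 form, from base 15 of the transcript. The Atp5g2 promoter held the full NRF1 palindrome 42 bases before the start. No match to the 5 sets of letters was found in the windows of Cox5a and Cox7a1. RefSeq promoters matched 38 of the 51 members by gene ID, with 42 start sites. The NRF1 palindrome was found in 4 of the 42 member promoters (9.52%) and in 0.971% of all 32851 promoters of the same length. GCNTGCGC, which lies within it, was found in 38.1% and 9.95%. The shares were 28.6% and 8.86% for CCGGAAG and 11.9% and 2.75% for AAGATGGC. Atp5sl had overlapping windows from different start sites, and the same AAGATGGC was counted in each. For TCAAGGTCA the shares were 4.76% and 0.423%, and among the 38 members with a promoter only Sdhd and Atp5g3 held it. For AGGTCA the shares were 21.4% and 16.3%. The direct repeat of AGGTCA with 4 bases between, a spacing known for thyroid hormone receptors, was in 0 of the 42 and in 0.0152% of all. With only 5 hits among all 32851 promoters, its absence from 42 says nothing about receptor sites near these genes. The median GC content was 56.5% in member promoters and 52.7% in all promoters. All promoters were taken whether or not their genes were read here, so the shares are matched for neither GC content nor expression. These are matches of letters in a window, and binding was not measured.

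Nuclear genes of all 4 complexes and cytochrome c were higher with T3, mostly by small amounts. Of the 51 members 44 passed the filter on low values (at least 10 normalized reads in at least 3 libraries), and 40 of these rose and 1 fell at an adjusted p-value under 0.05 (limma on log2(value + 1), Benjamini-Hochberg over 13052 genes). That is 90.9% of tested members higher, beside 24.0% of all genes tested, and 2.27% lower, beside 20.8%. The members were also read far more, with a median of 8522 normalized reads per kb of exon with vehicle, beside 296 for all genes tested. Small changes are more readily called in genes with many reads, so the 2 shares are not matched for level. In either direction 41 of 44 were called, beside 44.8% of all genes. The authors' deposited table called 36 members higher, beside 19.3% of its genes. The median log2 fold change of tested members was 0.23 (1.17-fold), beside -0.01 for all genes. Of the 44 tested members, 40 had every T3 library above every vehicle library, beside 28.4% of all genes tested. These were the 40 called higher from the same libraries, so this order largely repeats the call and is no separate support. Only Cox6b2 and Atp5g2 of the 44 had overlapping groups, while 54.9% of all genes tested had groups that did not overlap. Of the 40, 37 rose by less than 1.5-fold. Without T3 replicate 3, 38 members were higher, beside 24.3% of all genes, and without vehicle replicate 1, 34, beside 23.1%. The rises of 1.5-fold or more were Cox7a1 (2.32-fold), Cycs (1.72-fold) and Atp5sl (1.51-fold). Under equal column totals the members called were 31 higher and 2 lower, beside 18.7% and 29.5% of all genes. Under upper-quartile scaling they were 32 and 2, beside 19.3% and 28.2%. All genes tested split into 53.6% higher among calls with the deposited scaling, 38.8% with equal totals and 40.6% with upper-quartile scaling.

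**Figure D1:**
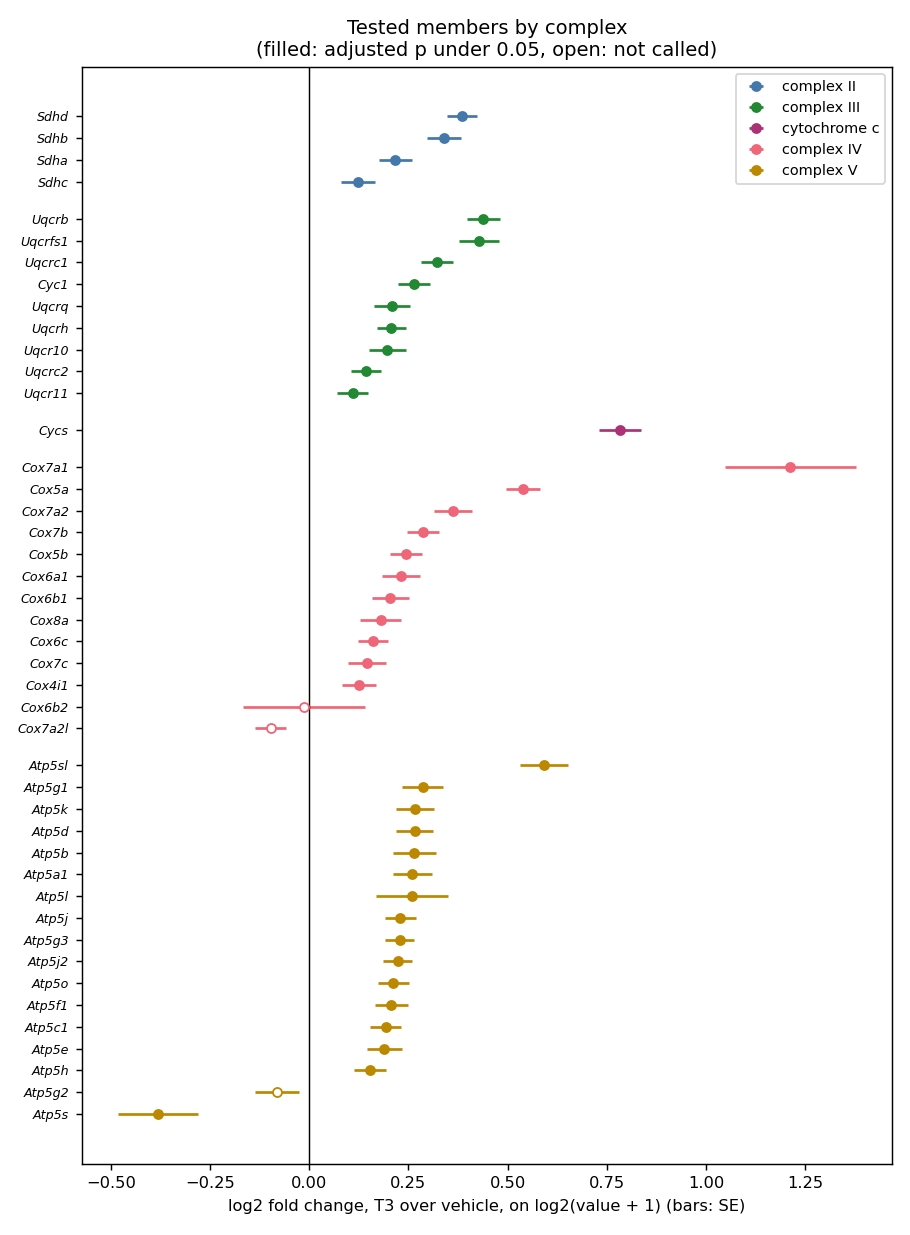
Log2 fold change of T3 over vehicle (horizontal axis, bars are the SE of the limma fit) for the 44 tested members, grouped by complex. Filled points passed an adjusted p-value of 0.05; 40 of them lie right of 0 and Atp5s alone lies left, while Cox6b2, Cox7a2l and Atp5g2 are open.

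The complexes moved by similar amounts. The mean of log2(value + 1) over the 4 members of complex II, less the vehicle mean, was 0.297, 0.294 and 0.208 in the T3 libraries and -0.013, -0.014 and 0.027 in the vehicle libraries. For the 9 tested members of complex III it was 0.284, 0.266 and 0.222 with T3 and -0.038, 0.003 and 0.035 with vehicle. For the 13 of complex IV it was 0.318, 0.298 and 0.210 with T3 and -0.061, -0.001 and 0.061 with vehicle. For the 17 of complex V it was 0.208, 0.204 and 0.181 with T3 and -0.024, 0.024 and 0.001 with vehicle. No T3 library overlapped a vehicle library in any complex, and T3 replicate 3 was the lowest T3 library in each. The T3 means of the 4 complexes, 0.198 to 0.275, lay closer to each other than to the 0.784 of the single cytochrome c gene. No test of the difference between complexes was made. By median log2 fold change their order differed, with 0.279 for complex II, 0.209 for III, 0.204 for IV and 0.228 for V. The mean of complex IV includes the isoform Cox7a1, and that of complex V includes Atp5sl and Atp5s, all described below. Together the 44 tested members took 1.83%, 1.81% and 1.78% of all normalized reads in the T3 libraries and 1.56%, 1.60% and 1.62% in the vehicle libraries, a share that scaling between libraries cannot change.

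**Figure D2:**
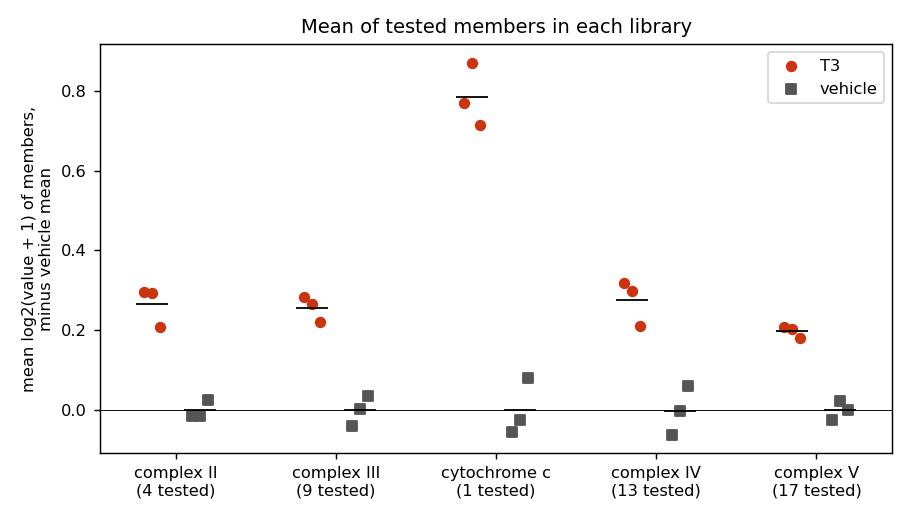
Mean log2(value + 1) of the tested members of each complex in each library, minus the vehicle mean (vertical axis); circles are T3 libraries, squares vehicle libraries, lines group means. T3 libraries lie above vehicle libraries in every complex, and cytochrome c, a single gene, lies highest at 0.714 to 0.870.

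Complex II, succinate dehydrogenase, is the only respiratory complex without a subunit from the mitochondrial genome and also works in the citric acid cycle. All 4 of its genes rose. Sdhd, a membrane anchor subunit (mm10 chromosome 9, 50596340 to 50603849, minus strand, 4 exons), had 14366, 14407 and 13605 normalized reads with T3 against 10719, 10714 and 11014 with vehicle, a 1.31-fold rise (log2 0.39 ± 0.04 SE, limma adjusted p = 4.16e-05). Sdhb, the iron-sulfur subunit, had 7734, 7748 and 7174 with T3 and 5822, 5956 and 6111 with vehicle (1.27-fold). Sdha, the flavoprotein that oxidises succinate, had 23832, 23341 and 22338 with T3 and 20207, 19746 and 19828 with vehicle (1.16-fold). The groups were separate for each of these genes. Sdhc, the second membrane anchor, had 8967, 9027 and 8510 with T3 and 7962, 7954 and 8426 with vehicle, with T3 replicate 3 only just above the highest vehicle library. Its 1.09-fold rise (limma adjusted p = 0.0362) was lost in 11 of 18 alternative settings. Among these were both other scalings and the removal of T3 replicate 1, T3 replicate 2, vehicle replicate 1 or vehicle replicate 2, with adjusted p-values of 0.0872 to 0.262. Without T3 replicate 3 its adjusted p was 0.0154 and all 4 genes of the complex were called.

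In complex III all 9 tested genes rose, beside the pseudogene Uqcrh-ps1, which had at most 1 normalized read in any library and was not tested. Uqcrb, a small subunit next to the ubiquinone site (chromosome 13, 66900621 to 66905350, minus strand, 4 exons), had 4071, 4121 and 3936 normalized reads with T3 and 2927, 3106 and 2913 with vehicle (1.36-fold, limma adjusted p = 2.4e-05). Uqcrfs1, the Rieske iron-sulfur protein (chromosome 13, 30540312 to 30545316, minus strand, 2 exons), had 12589, 12440 and 11420 with T3 and 8655, 8989 and 9463 with vehicle (1.34-fold, limma adjusted p = 0.000109). Uqcrc1, a core protein, averaged 17087 ± 563 with T3 and 13667 ± 294 with vehicle (SD, n = 3), a rise of 1.25-fold. Its partner core protein Uqcrc2 rose less, by 1.10-fold, to 17744 ± 418 with T3 against 16065 ± 116 with vehicle, a call lost with equal column totals (limma adjusted p = 0.107), upper-quartile scaling (0.0851) and without T3 replicate 1 (0.0644). Cyc1, the haem protein that passes electrons to cytochrome c, averaged 15463 ± 230 with T3 and 12881 ± 514 with vehicle (1.20-fold). The small subunits Uqcrq, Uqcrh and Uqcr10 rose 1.15-fold to 1.16-fold. Uqcr11 had 4009, 4111 and 4067 with T3 and 3626, 3832 and 3841 with vehicle, separate groups with a 1.08-fold difference. Its call (limma adjusted p = 0.0426) was lost in 12 of 18 alternative settings. It was lost without any single library other than vehicle replicate 3 (limma adjusted p from 0.0656 without T3 replicate 3 to 0.124 without T3 replicate 2, and 0.117 without vehicle replicate 1), and the authors' deposited table gives an adjusted p of 0.112.

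Cytochrome c, the soluble carrier between complexes III and IV that also triggers cell death when released into the cytosol, rose more than any tested subunit except Cox7a1. Cycs (chromosome 6, 50562563 to 50566474, minus strand, 3 exons) had 3240, 3478 and 3121 normalized reads with T3 and 1832, 1870 and 2011 with vehicle. The lowest T3 library was well above the highest vehicle library, and the fold change was 1.72 (log2 0.78 ± 0.05 SE, limma adjusted p = 2.72e-06). Among 10568 other genes with a mean of at least 100 normalized reads, those whose log2 values ran most like Cycs over the 6 libraries were Pkig, Rhbdl2, Lrp10, Pacsin2 and Tex264. Their Pearson correlations with Cycs were 0.998 to 0.999 over 6 libraries that fall into 2 treatment groups, and all 5 genes share that contrast with Cycs.

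Of 13 tested complex IV members 11 rose and 2 were not called. Cox5a, a matrix subunit to which thyroid hormone metabolites bind in isolated enzyme (chromosome 9, 57521232 to 57532427, plus strand, 5 exons), had 10491, 10338 and 10004 normalized reads with T3 and 6952, 6844 and 7440 with vehicle. The groups were far apart, and the rise was 1.45-fold (log2 0.54 ± 0.04 SE, limma adjusted p = 7.93e-06). Cox7a2, Cox7b, Cox5b and Cox6a1, which surround the catalytic core, rose 1.29-fold, 1.22-fold, 1.18-fold and 1.17-fold. Cox6b1, Cox8a, Cox6c, Cox7c and Cox4i1 rose 1.09-fold to 1.15-fold. Cox4i1, the subunit through which ATP slows the enzyme, had 18097, 17863 and 17572 with T3 and 15701, 16370 and 17050 with vehicle. Its call (limma adjusted p = 0.0374) was lost in 10 of 18 alternative settings, that of Cox7c in 11 and that of Cox8a in 7. Each of these 3 calls was lost without T3 replicate 1, T3 replicate 2, vehicle replicate 1 or vehicle replicate 2, with limma adjusted p-values of 0.094 to 0.128 for Cox4i1, 0.0835 to 0.12 for Cox7c and 0.0516 to 0.064 for Cox8a. Without vehicle replicate 1 the value was 0.119 for Cox4i1, 0.0915 for Cox7c and 0.0516 for Cox8a. Without T3 replicate 3 or without vehicle replicate 3 complex IV still had 11 genes higher, and without any other library it had 8.

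Several complex IV subunits have isoforms that replace each other by tissue. Cox7a1, the isoform typical of heart, skeletal muscle and brown fat (chromosome 7, 30184171 to 30186030, plus strand, 4 exons), had 433, 462 and 303 normalized reads with T3 and 150, 160 and 201 with vehicle. T3 replicate 3 was the lowest T3 library but above every vehicle library, and the rise was 2.32-fold (log2 1.21 ± 0.17 SE, limma adjusted p = 0.000278), or 2.64-fold without T3 replicate 3. Cox7a1 made up 5.20%, 5.65% and 3.97% of the sum of Cox7a1 and Cox7a2 with T3 and 2.60%, 2.59% and 3.12% with vehicle (exact permutation test, two-sided p = 0.1, the smallest 3 against 3 libraries can give; adjusted p = 0.3 over 6 shares tested). Cox7a1 has the shorter summed exons, and per exon length its share was 10.1%, 11.0% and 7.84% with T3 and 5.21%, 5.20% and 6.23% with vehicle, so that the difference was 4.11 percentage points in place of 2.16. It was the minor isoform in every library on both scales. Striated muscle markers were near 0, with Ckm and Myh6 at 0 and 5 such genes summing to 0 to 2 normalized reads per T3 library and 0 to 4 per vehicle library.

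The other tissue-restricted isoforms were at 0 or low. Cox6b2, known from testis, had 70, 65 and 57 normalized reads with T3 and 64, 72 and 58 with vehicle, overlapping groups (limma adjusted p = 0.951). It was 0.761% ± 0.0651 of Cox6b1 plus Cox6b2 with T3 and 0.889% ± 0.130 with vehicle (SD, n = 3; exact permutation two-sided p = 0.3, adjusted p = 0.45). Cox6a2, the muscle isoform of Cox6a1, had 3, 9 and 1 with T3 and 5, 6 and 2 with vehicle and was not tested for change; its share of Cox6a1 plus Cox6a2 was 0.0422% ± 0.0401 and 0.0506% ± 0.0248 (exact permutation two-sided p = 0.9). Cox8b, Cox8c and Cox7b2 were listed at 0 in all libraries, and Cox4i2, the oxygen-sensitive isoform of lung, had 1 normalized read in 1 T3 library and 0 elsewhere. Cox7a2l, a relative of Cox7a2 that joins complexes III and IV into supercomplexes, was not called: it had 6118, 6084 and 5897 with T3 and 6558, 6224 and 6579 with vehicle. All T3 libraries were below all vehicle libraries, with a log2 fold change of -0.10 ± 0.04 SE that was not called (limma adjusted p = 0.0664) but was called lower with equal totals (0.00429) and upper-quartile scaling (0.00814).

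**Figure D3:**
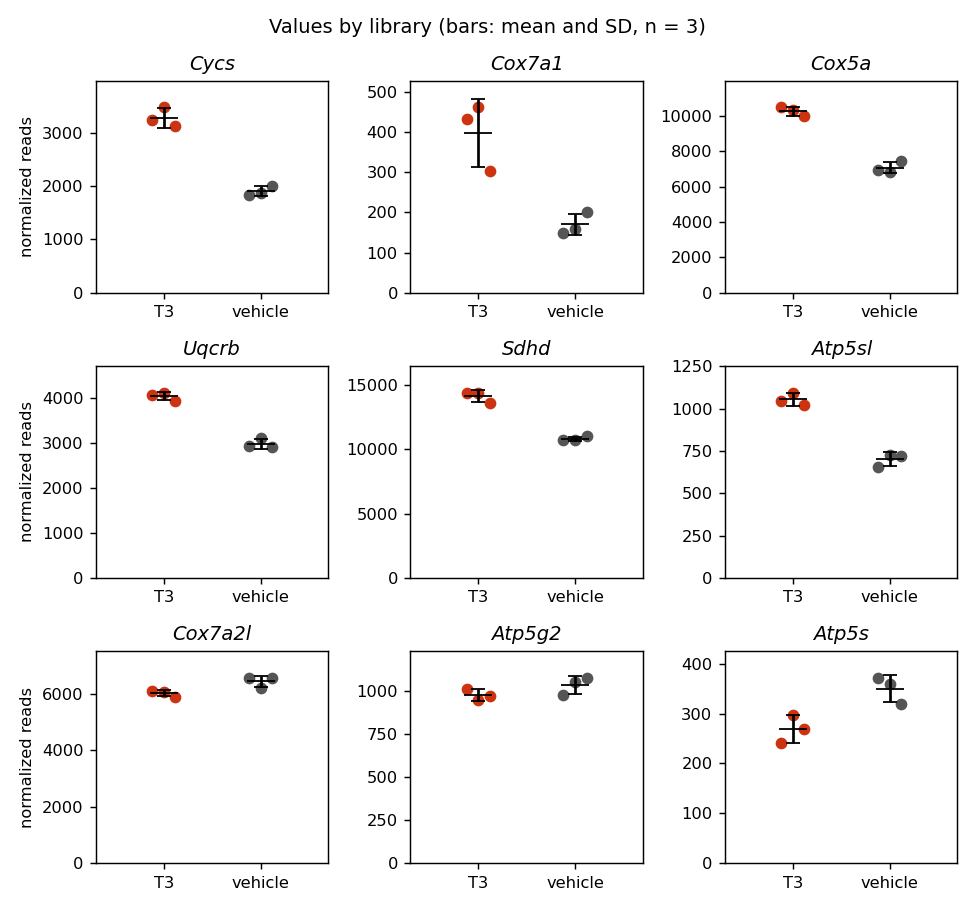
Normalized reads in each library for 9 members (vertical axes start at 0; points are libraries, bars are mean and SD, n = 3). Cycs, Cox7a1, Cox5a, Uqcrb, Sdhd and Atp5sl lie higher with T3, Atp5s lower, and Cox7a2l and Atp5g2 were not called; T3 replicate 3 is the right-hand T3 point in each panel.

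ATP synthase has a catalytic head in the matrix, a stalk, and a membrane ring of c subunits turned by protons. All 5 genes of the head rose, by 1.14-fold to 1.20-fold. Atp5b, the catalytic beta subunit and the member with most reads (chromosome 10, 128083307 to 128090388, plus strand, 10 exons), had 102496, 100243 and 96464 normalized reads with T3 and 82359, 82353 and 84267 with vehicle, separate groups (1.20-fold, limma adjusted p = 0.00301). Atp5a1, the alpha subunit that alternates with it, averaged 79402 ± 2065 with T3 and 66278 ± 1186 with vehicle (1.20-fold). Atp5c1, the rotating central shaft, rose 1.14-fold, and Atp5d and Atp5e at its foot rose 1.20-fold and 1.14-fold. Of the 10 stalk and membrane genes 9 rose, between 1.11-fold for Atp5h and 1.22-fold for Atp5g1. Atp5o and Atp5f1, parts of the outer stalk that holds the head still, rose 1.16-fold and 1.15-fold, and Atp5j, Atp5j2 and Atp5k 1.17-fold, 1.17-fold and 1.20-fold. Atp5l had 483, 472 and 507 with T3 and 416, 455 and 357 with vehicle, and its call (limma adjusted p = 0.044) was lost in 11 of 18 settings. It was lost without any single library other than vehicle replicate 2 (limma adjusted p = 0.0995 without T3 replicate 3, 0.0632 without vehicle replicate 1 and 0.13 without vehicle replicate 3). The call of Atp5h was lost with equal column totals (limma adjusted p = 0.122), upper-quartile scaling (0.0941), a level trend removed (0.0586) and without T3 replicate 1 (0.056). The pseudogene Atp5c1-ps had 2 to 5 normalized reads with T3 and 0 to 2 with vehicle and was not tested.

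The c subunit of the ring is made from 3 genes that encode the same mature protein behind different import sequences. Atp5g3 had 20409, 20322 and 20687 normalized reads with T3 and 17348, 17847 and 17263 with vehicle (1.17-fold, limma adjusted p = 0.000903). Atp5g1 had 4845, 4594 and 4700 with T3 and 3676, 4162 and 3768 with vehicle (1.22-fold, limma adjusted p = 0.00142). The groups were separate for both. Atp5g2 had 1013, 948 and 973 with T3 and 975, 1052 and 1078 with vehicle, overlapping groups (log2 -0.08 ± 0.06 SE, limma adjusted p = 0.27). Its share of the 3 genes' reads was 3.86%, 3.67% and 3.69% with T3 and 4.43%, 4.56% and 4.88% with vehicle (exact permutation two-sided p = 0.1, adjusted p = 0.3). Atp5g3 made up 78.2% ± 0.48 with T3 and 78.1% ± 0.734 with vehicle (SD, n = 3; exact permutation two-sided p = 0.8, adjusted p = 0.9). The share of Atp5g1 also overlapped between groups (exact permutation two-sided p = 0.3, adjusted p = 0.45).

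The largest rise and the only fall among complex V symbols belonged to genes that are not standard subunits. Atp5sl, named Dmac2 in RefSeq and known as an assembly factor of complex I (chromosome 7, 25619493 to 25625550, plus strand, 6 exons), had 1047, 1095 and 1023 normalized reads with T3 and 654, 729 and 719 with vehicle. That was a clear separation and a 1.51-fold rise (limma adjusted p = 3.96e-05). Atp5s, named Dmac2l in RefSeq and described as coupling factor B (chromosome 12, 69724962 to 69744658, plus strand, 5 exons), had 241, 298 and 269 with T3 and 372, 359 and 320 with vehicle. Its log2 value fell by 0.38 ± 0.10 SE (limma adjusted p = 0.0115), a call lost without T3 replicate 1, the lowest library (0.0508). Without both genes complex V had 14 of 15 tested subunits higher and none lower.

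Levels per kilobase of exon, unlike folds, varied widely. In complex II the 4 genes lay between 7032 and 10993 normalized reads per kb with T3 and between 5552 and 8417 with vehicle. In complex III the 9 genes lay between 8037 and 18918 with T3 and 5928 and 16393 with vehicle. Cox4i1 was the highest complex IV gene, at 26279.8 per kb with T3 and 24114 with vehicle. Atp5b was the highest member, at 53078 per kb with T3 and 44169 with vehicle, followed by Atp5a1 at 32649 and 27252 and Atp5g3 at 30151 and 25753. Cycs stood at 1072 per kb with T3 and 622.5 with vehicle, and Atp5l at 950 and 798. Respiratory genes have processed copies elsewhere in the genome, and 14 of the 44 tested members had at least 1 pseudogene transcript in GENCODE M21 matching at 95% identity or more over at least 100 bases. Atp5l had 9 such copies, Atp5h and Cox7c 4 each, and Cycs and Uqcrb 3 each. The sources do not say how reads fitting several places were counted, nor whether strand was used, so the levels of all 14 genes are uncertain, and the effect on them was not tested. The others were Atp5c1, Atp5f1, Atp5g1, Cox6c, Cox7b and Uqcr11 with 2 copies each and Atp5k, Atp5o and Cox7a2l with 1 each.

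**Figure D4:**
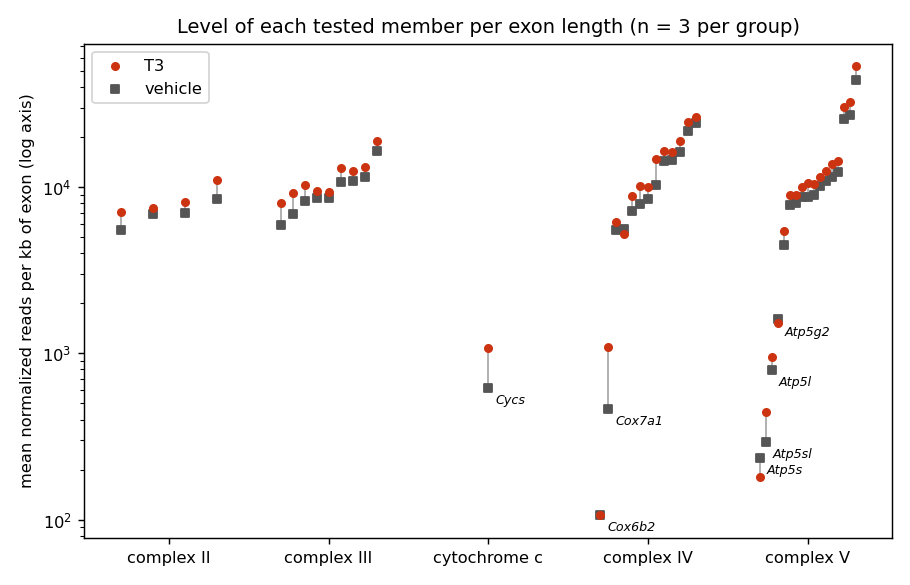
Mean normalized reads per kb of exon (log axis) of each tested member, by complex; circles are T3, squares vehicle, n = 3 per group. Atp5b is highest at 53078 with T3 and 44169 with vehicle, and the 7 labelled genes form the low end, with Cox6b2 at 106 and 107.

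Subunits outside the symbol rule were looked at beside the members. Usmg5, a small ATP synthase subunit, had 2703, 2714 and 2702 normalized reads with T3 and 2062, 2269 and 2192 with vehicle (1.25-fold, limma adjusted p = 0.000322). 2010107E04Rik, another small ATP synthase protein, rose 1.09-fold, a call lost in 10 of 18 settings (limma adjusted p = 0.0957 without vehicle replicate 1, 0.073 to 0.138 without T3 replicate 1, T3 replicate 2 or vehicle replicate 2). The ADP and ATP carriers Slc25a4 and Slc25a5, which exchange the product of complex V across the inner membrane, rose 1.29-fold and 1.25-fold, and the phosphate carrier Slc25a3 1.12-fold, the last not called with equal totals (limma adjusted p = 0.0648) or upper-quartile scaling (0.0606). Atpif1, which blocks ATP synthase from running backwards, stood at 8196, 7975 and 7947 with T3 and 7245, 7593 and 7778 with vehicle and was not called (limma adjusted p = 0.0822), though it was at 0.0497 with an exon length trend removed.

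The 2 tested partner subunits from the mitochondrial genome were not called. COX1, the catalytic subunit of complex IV, had 188472, 251571 and 248551 normalized reads with T3 and 226045, 212695 and 170463 with vehicle (1.13-fold, limma adjusted p = 0.327). CYTB of complex III had 103599, 135577 and 144729 with T3 and 116109, 112065 and 99278 with vehicle (1.16-fold, limma adjusted p = 0.164). The groups overlapped for both, and T3 replicate 1 was the lowest T3 library for both. Without it CYTB was called higher (1.29-fold, limma adjusted p = 0.0148). COX2, COX3, ATP6 and ATP8 had at most 13 normalized reads in any library and were not tested. Why they stood so far below COX1 and CYTB, from the same genome, was not examined, so their values are not read as low expression. By limma 0 of the 2 tested genes were called and 0 had an unadjusted p under 0.05, and the authors' deposited table also called 0.

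Of 41 tested assembly factors, which fold, metallate or join the subunits, 16 rose and 3 fell, with a median log2 fold change of 0.09. That is 39.0% higher and 7.32% lower, beside 24.0% and 20.8% of all genes. With equal column totals 11 were higher and 6 lower, beside 18.7% and 29.5% of all genes. With upper-quartile scaling 12 were higher and 6 lower, beside 19.3% and 28.2%. Of the 27 that serve complex IV or haem, 13 rose and 1 fell. Hccs, which attaches haem to cytochrome c and Cyc1, had 1769, 1724 and 1743 normalized reads with T3 and 1156, 1125 and 1120 with vehicle (1.54-fold, limma adjusted p = 2.54e-06). Cox10, which starts the making of haem a for complex IV, had 2338, 2336 and 2364 with T3 and 1678, 1646 and 1679 with vehicle (1.41-fold, limma adjusted p = 6.1e-06). The copper chaperone Cox11 rose 1.46-fold, and Higd1a, a small protein tied to complex IV, 1.64-fold, with T3 replicate 3 lowest of the T3 libraries at 1951 beside 2374 and 2431. Among factors for complex II, Sdhaf4 rose 1.45-fold and Sdhaf1 1.16-fold, of 4 tested, and the call of Sdhaf1 was lost with equal totals (limma adjusted p = 0.0635), upper-quartile scaling (0.0507) and without T3 replicate 1 (0.051). Of 6 for complex III, Ttc19 rose 1.19-fold and Bcs1l, which inserts the Rieske protein, fell to 658, 706 and 790 with T3 against 907, 932 and 923 with vehicle. None of 4 factors for complex V rose, and Tmem70, which helps build the c ring, fell to 0.915 of its vehicle level (limma adjusted p = 0.0486). The call of Tmem70 was lost in 8 of 18 settings, among them leaving out T3 replicate 1 (0.172), T3 replicate 2 (0.144), vehicle replicate 1 (0.114) or vehicle replicate 2 (0.124). Cox19, a copper-handling factor, fell to 1233, 1113 and 1228 with T3 against 1541, 1631 and 1642 with vehicle.

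Regulators of respiratory genes did not share a direction. Ppargc1a, a coactivator of mitochondrial gene programmes, had 1606, 1717 and 1386 normalized reads with T3 and 287, 351 and 269 with vehicle (5.19-fold, limma adjusted p = 2.07e-07). Esrra, the estrogen-related receptor it works with, had 6187, 6255 and 5698 with T3 and 4464, 4880 and 4727 with vehicle (1.29-fold, limma adjusted p = 0.00026). Tfam, which packages and transcribes mitochondrial DNA, fell to 3216, 3206 and 3353 with T3 against 3861, 3610 and 3750 with vehicle (limma adjusted p = 0.00328). Pprc1, a relative of Ppargc1a, fell to 3090, 2951 and 3319 with T3 against 3678, 3582 and 3810 with vehicle (limma adjusted p = 0.00314). Nrf1, Gabpa, Yy1, Tfb2m and Polrmt were not called. Ppargc1b, another relative of Ppargc1a, had 570, 597 and 562 with T3 and 589, 456 and 484 with vehicle, overlapping groups that were not called (log2 0.19, limma adjusted p = 0.133). Without vehicle replicate 1 it was called higher (log2 0.29, limma adjusted p = 0.00906).

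**Figure D5:**
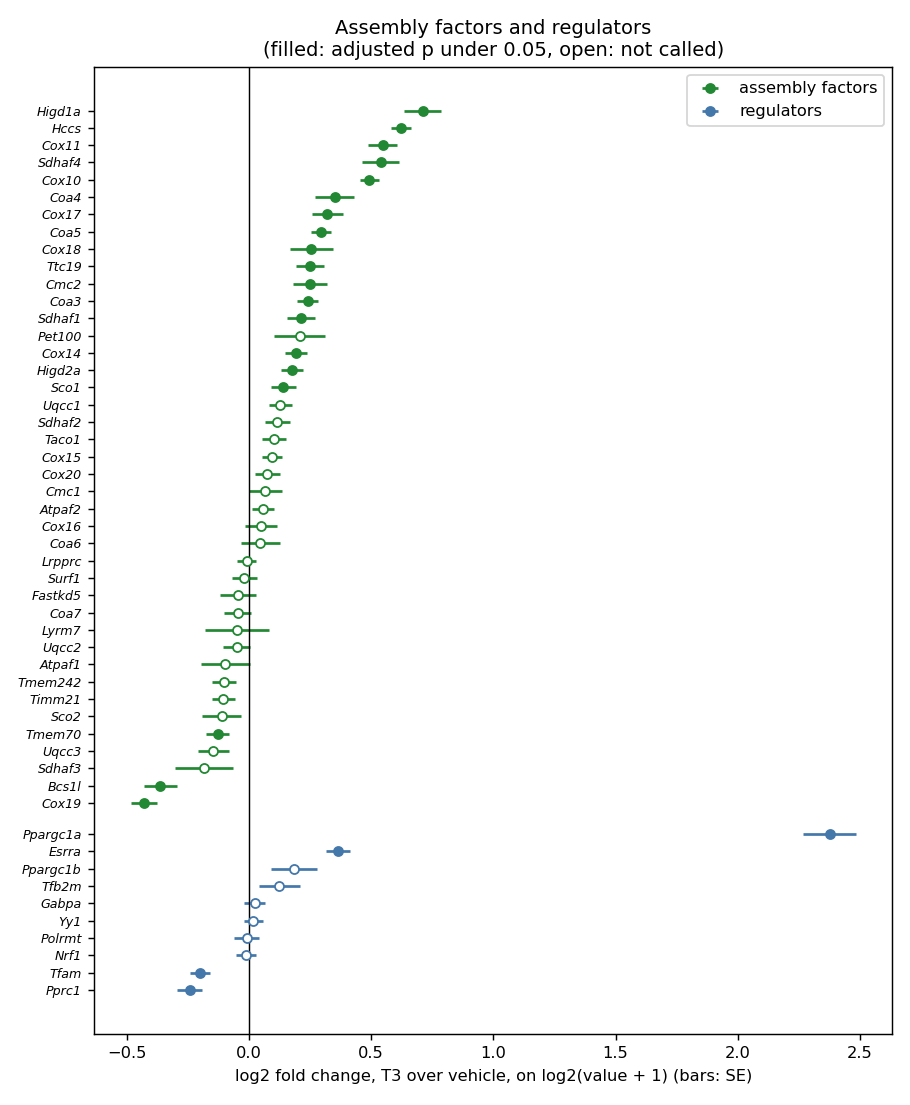
Log2 fold change of T3 over vehicle (horizontal axis, bars are the SE of the limma fit) for 41 assembly factors and 10 regulators; filled points passed an adjusted p-value of 0.05. Higd1a, Hccs, Cox11, Sdhaf4 and Cox10 lead the assembly factors, Cox19 and Bcs1l lie lowest, and Ppargc1a stands far right at 2.38.

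Cell type markers moved with the same contrast. All 5 markers of intestinal epithelium rose, Epcam, Cdh1, Vil1, Krt20 and Cdx2, with a median log2 fold change of 0.45, beside 0.23 for the members. They summed to 126919, 123654 and 123633 normalized reads with T3 and 96604, 96577 and 99970 with vehicle. Of 7 enterocyte genes 5 rose, and all 7 together summed to 95245, 84888 and 79926 normalized reads with T3 and 42268, 46013 and 45960 with vehicle. All 4 stem cell genes fell, summing to 21920, 20840 and 23046 with T3 and 57082, 49837 and 51850 with vehicle. Fabp1 (log2 -0.25) and Apoa4 (log2 -0.08), enterocyte genes of lipid handling, were not called. Of the secretory types, 1 of 3 Paneth cell genes rose, 0 of 3 goblet and 0 of 2 enteroendocrine genes were called, and 1 of 2 tuft cell genes fell. The Paneth gene that rose was Mmp7 (log2 0.52), while Lyz1 (log2 -0.28) and Defa24 (log2 0.00) were not called. Beside these short lists, 24.0% of all genes tested rose and 20.8% fell. In bulk RNA a change in the number of cells of a type and a change in RNA per cell cannot be told apart, and the part of these markers in the rise of respiratory genes was not tested.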

How the data were processed

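RNA sequencing was done on 6 directional libraries of organoids from mouse small intestine, 3 with T3 and 3 with vehicle. Per the submitters' processing notes, the tools were STAR, Subread and DESeq2 (versions and strand setting not given), and the build is mm10, per the file headers. In the deposited table the authors give each library a score per gene, its reads after scaling across libraries, as whole numbers. The authors' deposited mean column equalled the mean of the 6 columns to within 0.833 in every gene. Their deposited log2 fold changes and p-values served as an alternative, and their exon lengths for levels per kb. A second deposited table, a subset, was not used.

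Of 27179 genes, 13052 reached 10 normalized reads in 3 or more libraries and were fitted on log2(value + 1) by limma 3.58.1 (R 4.3.3), with a trended variance prior and without a block for replicate number. Genes were called at a Benjamini-Hochberg adjusted p-value under 0.05. Fold changes on this scale understate changes of low genes. The members and lists were chosen with earlier results of these data known, so lists carry counts and medians and no p. Values are shown by library for cytochrome c, complex II, isoform families, the 2 largest rises and the largest fall of each complex, up to 4 assembly factors, mitochondrial-genome subunits and regulators, and further genes were named after their values were seen. Pseudogene copies were found with blastn in GENCODE M21 transcripts. Alternatives were other scalings, filters, pseudocounts, variance models (robust moderation with statmod 1.5.0) and thresholds, removal of a trend on exon length or level, a replicate block, the authors' comparison and leaving out each library. Column totals give no read depth, since the values are scaled, so no counting intervals are given.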

Additional observations from a re-analysis of the deposited data

How the results depend on the processing

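The median log2 fold change of tested members was 0.225 as reported, 0.159 with equal column totals, 0.169 with upper-quartile scaling and 0.181 after removal of a trend on level (an alternative chosen after seeing the data); these scalings shift the median of all genes from -0.009 to -0.075 and -0.065. Members called lower numbered 1 as reported, 2 with equal totals, upper-quartile scaling and the level trend removed (Cox7a2l joins), 0 at an adjusted p under 0.01, and 0 to 1 when single libraries were left out (0 without T3 replicate 1). Members called higher numbered 31 to 40 over all settings and 32 to 39 when single libraries were left out, and 31 of the 41 called members were called in every one of 18 settings. No called member changed direction in any of them. Assembly factors called lower numbered 3 as reported and 6 with equal totals or upper-quartile scaling. Those called higher numbered 16, 11 and 12 (12 to 15 when single libraries were left out). Of all genes tested, 24.0% were higher and 20.8% lower as reported. The shares were 18.7% and 29.5% with equal totals, and 19.3% and 28.2% with upper-quartile scaling. Mitochondrial-genome subunits called numbered 0 to 1 when single libraries were left out, the 1 being CYTB without T3 replicate 1. No sign of pairing by replicate number was seen (correlations of same-numbered deviations -0.07, 0.028 and -0.057, and not every library correlated best with its own number). With 3 libraries per group this cannot show that they were unpaired. With a replicate block 35 members were higher and 1 lower, beside 22.5% and 18.9% of all genes. The Cox7a1 share, 2.16 percentage points higher with T3, was 4.11 points higher per exon length. No share of this kind could be called, since the exact permutation test of 3 against 3 libraries gives a p-value of at least 0.1. When single libraries were left out, the Atp5g3 share, 0.14 points higher with T3, ranged from -0.22 to 0.514 points. The T3 difference in the Cox6a2 share, -0.00842 points, ranged from -0.0309 to 0.00761. The causes were not tested. Scaled, rounded values limit precision for members with few reads, such as Cox6a2.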
